A study of Homo sapiens with 3 samples.

Results

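Retained intron transcripts are annotated, non-coding isoforms of a gene in which intron sequence stays in the RNA. In HaCaT cells, 7378 of them from 2876 genes were expressed well enough to be set against the protein-coding RNA of the same gene. They were chosen by annotation and level: the transcript had the type retained intron, lay on a chromosome and belonged to a gene with a coding transcript. Both it and the highest coding transcript of the gene had at least 2 FPKM (fragments per kilobase of transcript, scaled to the total of the library) in every library. That left 26.8% of the 27506 retained intron transcripts of coding genes, among 247012 transcripts listed in all. The highest coding transcript, called the reference here, was the coding transcript with the highest mean FPKM over the libraries, and the ratio is the FPKM of the retained intron transcript over that of the reference. Because the levels in all libraries chose the members, the levels and the size of the ratio are descriptions.

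HaCaT is an immortalized human keratinocyte line, cultured here in serum-containing medium. The 3 libraries came from cells given 10 nM of a control siRNA (genotype WT, 1 library) or of SRSF5 siRNA No.1 or No.2 (genotype SRSF5 knockdown, 1 library each), called siRNA 1 and siRNA 2. The control therefore has no replicate, and the 2 libraries of the SRSF5 group differ in their siRNA. SRSF5 is an SR protein, a splicing factor with an RNA-binding part and a tail rich in arginine and serine. The series asked how its loss changes RNA levels in these cells.

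An intron is removed when its 5′ splice site, usually starting with GT, and its 3′ splice site, usually ending with AG, are recognised and joined across. SR proteins help the splicing machinery to find these sites from the neighbouring exons. RNA that keeps an intron is often held in the nucleus or degraded, and several genes for splicing factors are known to hold back their own RNA in this way.

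Most members do not contain a complete intron. Instead, an exon of theirs runs past a splice site that coding transcripts use and stops inside the intron. Of the 7378 members, 2045 (27.7%) ran across a 5′ splice site only, 2260 (30.6%) across a 3′ splice site only and 2966 (40.2%) across both kinds. A complete intron of the reference lay inside 1225 members (16.6%). Complete introns of other coding transcripts were not counted, so more members can hold a complete intron. The sites below belong to the members whose ratio differed most and to members with many intron reads. Each line shows the sense strand 5′ to 3′ on GRCh38, taken from GENCODE 29 transcripts with the same exons as the deposited ones, and the capitals mark the first or last dinucleotide of the intron.
ACADVL-234, 5′ site, chr17:7222076-7222101, + strand: gatcagGCaacctgcctcccatttct
ACADVL-234, 3′ site, chr17:7221516-7221543, + strand: cagattcctgcttcccctccAGtacgcc
VMP1-216, 5′ site, chr17:59838392-59838417, + strand: ccacagGTaagactttaatccggttt
MYO5B-203, 3′ site, chr18:49880450-49880477, - strand: ttcccctattgctctcttccAGcgagtt
OGT-210, 5′ site, chrX:71544630-71544655, + strand: gccaagGTaggtgtttgatagaacac
OGT-210, 3′ site, chrX:71547885-71547912, + strand: tctttcattaacccctcctaAGgcatgt
ARGLU1-204, 5′ site, chr13:106559412-106559437, - strand: agagagGTaacgctcggtcgtttgga
The ACADVL site starts with GC rather than GT. Over the 5310 distinct 5′ sites that members ran across, 96.6% started with GT and 2.35% with GC, against 97.1% and 1.90% of the 15033 sites crossed only by retained intron transcripts that missed the level filter. The 6 letters GTAAGT opened 11.1% of the members' sites and 9.45% of the others, and GTGAGT 13.1% and 13.3%. Of the 3′ sites, 98.9% (5655 sites) and 99.1% (15775 sites) ended with AG. At these letters, the sites of the expressed and the other transcripts were nearly alike.

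The complete introns of the reference inside members had a shorter median length than those inside the other retained intron transcripts. The 1065 distinct introns that could be read had a median length of 213 bases (quartiles 108 and 454), against 305 bases (143 and 710) for 2946 introns found only in the transcripts that missed the filter. Of the members' introns 37.7% were shorter than 150 bases, against 25.9%. The filter that chose the members uses FPKM, in which reads are divided by transcript length. Its part in this difference was not tested. The median GC content was 54.8% and 56.6%. An example that could be shown whole is intron 9 of EIF4A2, which encodes a translation initiation helicase and hosts small nucleolar RNAs in its introns. EIF4A2-216 keeps this intron of 218 bases, and the capitals mark SNORA4, a small nucleolar RNA of 138 bases inside it.
EIF4A2 intron 9, chr3:186787585-186787802, + strand: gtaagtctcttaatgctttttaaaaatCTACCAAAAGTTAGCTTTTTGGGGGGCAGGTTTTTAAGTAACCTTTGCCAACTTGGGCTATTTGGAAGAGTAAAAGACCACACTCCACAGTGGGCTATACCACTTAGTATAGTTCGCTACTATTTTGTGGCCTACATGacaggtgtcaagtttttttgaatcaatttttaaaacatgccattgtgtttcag
EIF4A2-216 was at 1.12, 1.11 and 1.09 times its reference in the control, siRNA 1 and siRNA 2 libraries, and at least 34.6, 36.4 and 43.6 weighted reads lay outside coding exons. SNORA4 itself was listed at 1.27, 1.14 and 1.94 FPKM, from 7.79, 6.65 and 11.03 weighted reads. In all, 141 members held a small RNA, and their median ratio in the control was 0.522.

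A weighted read is the unit behind every value below. The deposited values behave as if each read were divided equally among all transcripts it touches on its strand, as described with the processing. The libraries held 44586223 weighted reads (control), 42281109 (siRNA 1) and 41269677 (siRNA 2). Transcripts of the retained intron type took 12.5%, 12.5% and 12.8% of the reads on chromosomes other than the mitochondrial one, which itself took 13.7%, 14.8% and 10.0%. A member had a median of 218 weighted reads in the control (22 to 27970). Transcripts of a gene that overlap share their reads, so the ratio does not measure the share of unspliced RNA. SRSF5 (ENSG00000100650) had 4320, 1987 and 826 weighted reads, which is 48.5% and 20.6% of the control after scaling to the library total. In bulk RNA, fewer cells with a transcript and less of it per cell cannot be told apart. Of the 8 basal keratinocyte markers, all were detected in every library, with KRT14 at 753, 1100 and 3351 RPM (weighted reads scaled to a common library total), KRT5 at 2259, 2570 and 3543 and ITGA6 at 750, 616 and 429. Of the 6 suprabasal markers, FLG was at 2.29, 8.96 and 104, KRT1 at 2.38, 1.25 and 27.7, and TGM1 at 1.85, 1.92 and 14.9. KRT10 was at 32.8, 33.5 and 37.9, IVL at 13.6, 31.3 and 6.98, and LOR at 0. With siRNA 2, all detected suprabasal markers except IVL were thus above the control. Of the 5 melanocyte markers TYR and MLANA were at 0, PMEL and DCT were under 1, and MITF was at 8.39, 16.1 and 11.1. The part of these differences in the ratios was not tested.

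Most retained intron transcripts were listed below their reference. The median ratio in the control was 0.643 (quartiles 0.426 and 0.901), with a range from 0.0335 to 7.29, and 18.3% of the members exceeded their reference. Other coding transcripts of the same filter had a median of 0.685 (16090 transcripts), transcripts annotated as targets of nonsense-mediated decay 0.791 (3958) and lncRNA-type transcripts of coding genes 0.806 (6056). The retained intron transcripts thus had the lowest median of the 4 types. Within the members, the median fell with the share of bases outside coding exons, from 0.791 in the lowest quartile of that share to 0.704, 0.615 and 0.458 in the next ones. It also fell with length, from 0.757 in the shortest quartile to 0.528 in the longest.

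**Figure D1:**
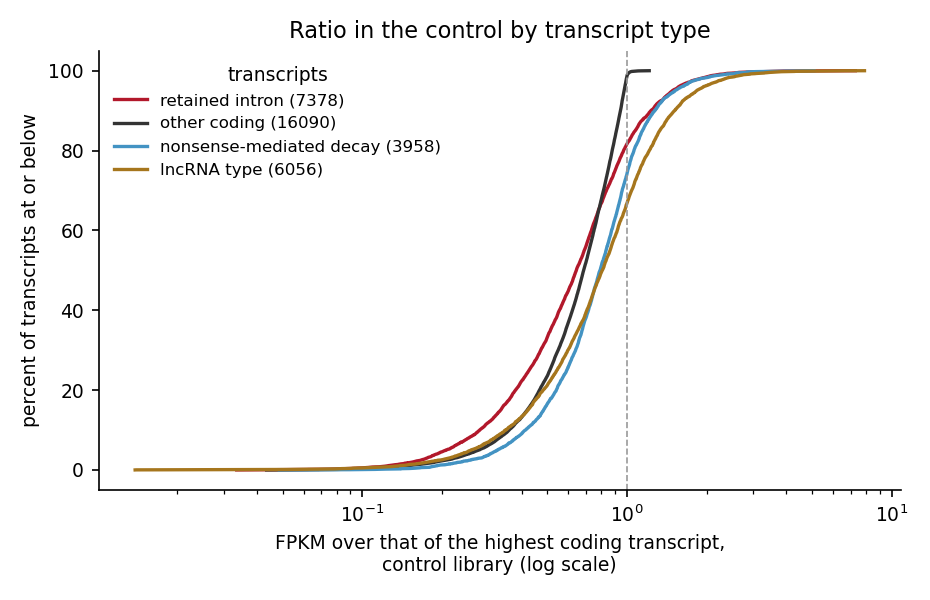
Cumulative percentage of transcripts (vertical axis) by their FPKM over that of the highest coding transcript of the gene in the control library (horizontal log axis), for 4 transcript types with their numbers. At the lower quartile the retained intron curve (0.426) lies left of the others, and 1.09% of the coding transcripts lie past the dashed line at 1, since the reference is the highest coding transcript by its mean.

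The 12 members with the highest control ratios were 168 to 1170 bases long. CACUL1-202 (432 bases) was at 21.7, 29.3 and 39.8 FPKM in the control, siRNA 1 and siRNA 2 libraries, an order kept for all values below, and its reference at 2.98, 4.70 and 5.83. Both were higher with the siRNAs, and the ratio was 7.29, 6.23 and 6.84. MAP2K7-208, a piece of 168 bases of a kinase of the JNK pathway, had ratios of 7.10, 6.70 and 5.99. PPP2CA-202 comes from the catalytic subunit gene of protein phosphatase 2A and reached 142, 121 and 122 FPKM, at ratios of 4.82, 4.70 and 4.63. NDUFA4 is a subunit of the respiratory chain, and its transcripts NDUFA4-202 and NDUFA4-205 had ratios of 4.39, 4.16 and 3.97, and 3.67, 3.66 and 3.57. RPS28-201, from a ribosomal protein gene, held 3.90, 3.85 and 3.84. It shares 312 of its 334 bases with its reference RPS28-203, which has 1330 bases. RPS28-201 had 823, 766.5 and 1040 weighted reads, and RPS28-203 had 841, 793 and 1078. The high ratio of RPS28-201 thus does not mean that it had more reads. OCLN-203, from the tight junction gene occludin, held 3.87, 3.98 and 3.85. The others among the highest were YIPF4-204, LRPAP1-202, NUDCD3-204, SYVN1-212 and KDM5C-215, with control ratios between 3.61 and 5.64. SYVN1-212, from an ubiquitin ligase of the endoplasmic reticulum and overlapping MIR6751, differed among the libraries at 3.69, 2.32 and 3.52. It also shares an exon with another gene, so part of its reads may belong there.

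Knockdown left the ratios of most members close to the control. The median log2 change was 0.00 with siRNA 1 and 0.00 with siRNA 2, with a standard deviation over members of 0.10 and 0.13. Of all members 71.9% stayed within 1.1-fold of the control in both siRNA libraries, and 77.2% of all secondary transcripts did (every transcript of a coding gene other than the reference, under the same filter). The ratio was at least 1.5-fold higher in both siRNA libraries for 6 members (0.0813%) from 3 genes, of which ACADVL-234 and VMP1-216 are described below. Among the 33515 secondary transcripts 0.0448% met that rule. It was at least 1.5-fold lower in both for 1 member (0.0136%), MYO5B-203, against 0.00895% of the secondary transcripts. These shares are small and of the order of the background.

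limma, fitted to the log2 ratio of all 33515 secondary transcripts with 1 control against 2 siRNA libraries and Benjamini-Hochberg adjustment, called 0 members. It called 0 of the secondary transcripts as well (0% of those tested). At an unadjusted p under 0.05 there were 352 members (4.77%), against 3.98% of all secondary transcripts. The smallest adjusted p among members was 1. The fit has 1 residual degree of freedom, from the difference between the siRNAs, and takes the single control to be as variable as they are. The design can therefore miss changes, and the absence of calls does not show that ratios were equal.

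All 7 members apart in both siRNA libraries shared no exon base with their reference. Of the 7378 members 1593 (21.6%) shared none. The standard deviation of the log2 change was 0.14 and 0.18 for these and 0.09 and 0.12 for the 5785 members that overlap their reference, of which 0 were apart in both. With siRNA 2 alone, 1.69% of the members without a shared base and 0.259% of those with shared bases were at least 1.5-fold from the control. Overlapping transcripts share reads in the deposited values, and whether this accounts for the smaller spread was not tested.

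**Figure D2:**
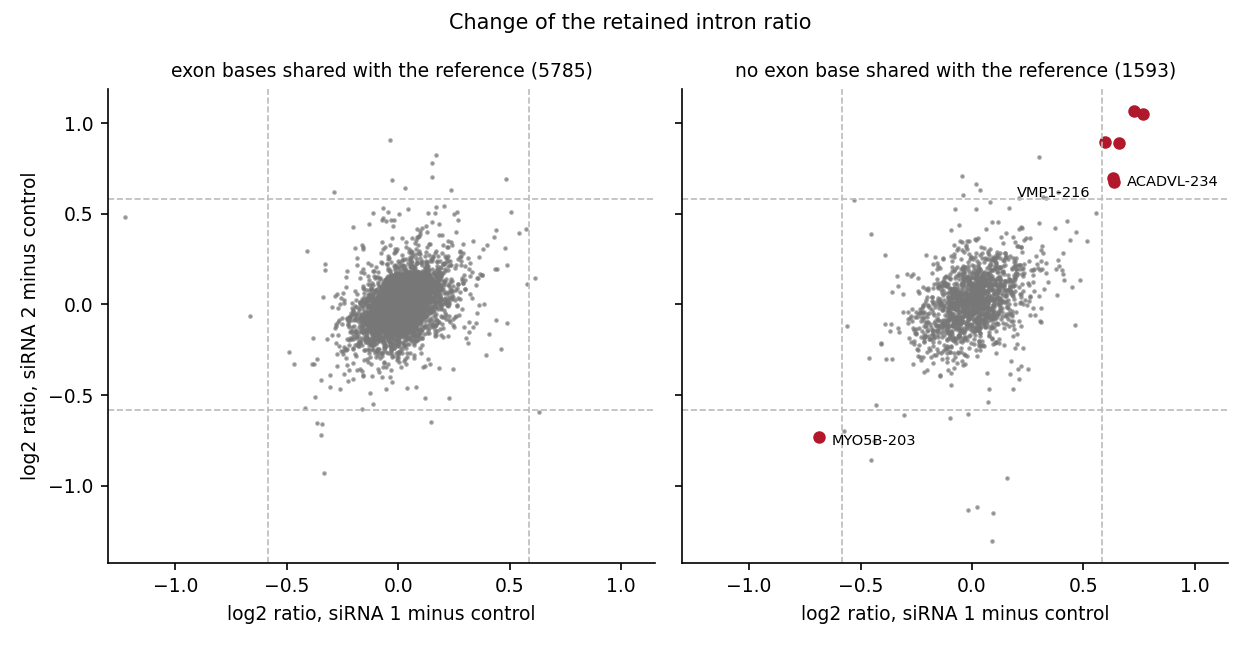
Log2 change of the ratio with siRNA 1 (horizontal) and siRNA 2 (vertical), both against the same control library, for members that share exon bases with the reference (left, 5785) and those that share none (right, 1593). Dashed lines mark 1.5-fold, and the 7 red points past it in both are all on the right.

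VMP1, a membrane protein gene of autophagy, gave VMP1-216 (chr17:59837931-59842255). This is an unspliced stretch of 4325 bases over the end of the gene, and MIR21, the gene of microRNA 21, lies inside it. VMP1-216 was at 2.82, 5.60 and 3.27 FPKM, highest with siRNA 1. Its reference VMP1-206 covers the start of the gene and was at 13.1, 16.7 and 9.32, lowest with siRNA 2. The ratio of 0.216, 0.335 and 0.351 gave a log2 change of 0.63 and 0.70 (mean 0.66 ± 0.05, SD, n = 2), with counting errors of at most 0.13 and 0.15. Against VMP1-201, the coding transcript that shares most bases with it, the ratio was 0.595, 0.737 and 0.784, which is under 1.5-fold. VMP1-205, over the same end of the gene, had 0.435, 0.511 and 0.508. VMP1-207, near the start, had 0.432, 0.437 and 0.396, so the higher ratios were at the 3′ end.

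ACADVL encodes a mitochondrial enzyme of fatty acid oxidation and has 16 members. ACADVL-234 (chr17:7221279-7222146, 599 bases, 54.1% outside coding exons) was at 3.49, 4.62 and 3.51 FPKM while its reference was at 5.72, 4.88 and 3.60. The ratio was 0.610, 0.948 and 0.976, a log2 change of 0.64 and 0.68 (mean 0.66 ± 0.03, SD, n = 2), with counting errors of at most 0.27 and 0.29. It stood apart from the other members of the gene: ACADVL-213 followed with 0.33 and 0.35, and 14 others lay between -0.16 and 0.23. ACADVL-234 runs across the GC site shown above, but this is not particular to it. ACADVL-224, among the 14 others, ends at position 7222092, also past that site. Against the overlapping coding transcript ACADVL-203 its ratio was 0.833, 1.22 and 1.32, with a change under 1.5-fold with siRNA 1 and above it with siRNA 2.

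MYO5B, a myosin motor of vesicle transport, gave the only lower member. MYO5B-203 (chr18:49879021-49880496, 196 bases) was at 7.98, 5.06 and 6.92 FPKM and its reference MYO5B-207, at the end of the gene, at 8.47, 8.65 and 12.2. The ratio of 0.942, 0.585 and 0.568 gave a log2 change of -0.69 and -0.73, with counting errors of at most 0.29 and 0.27. MYO5B-206, which overlaps it, gave -0.57 and -0.70. Against MYO5B-202, the coding transcript sharing most bases with it, MYO5B-203 was at 0.963, 0.700 and 0.705. The log2 change was then -0.46 and -0.45, under 1.5-fold.

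**Figure D3:**
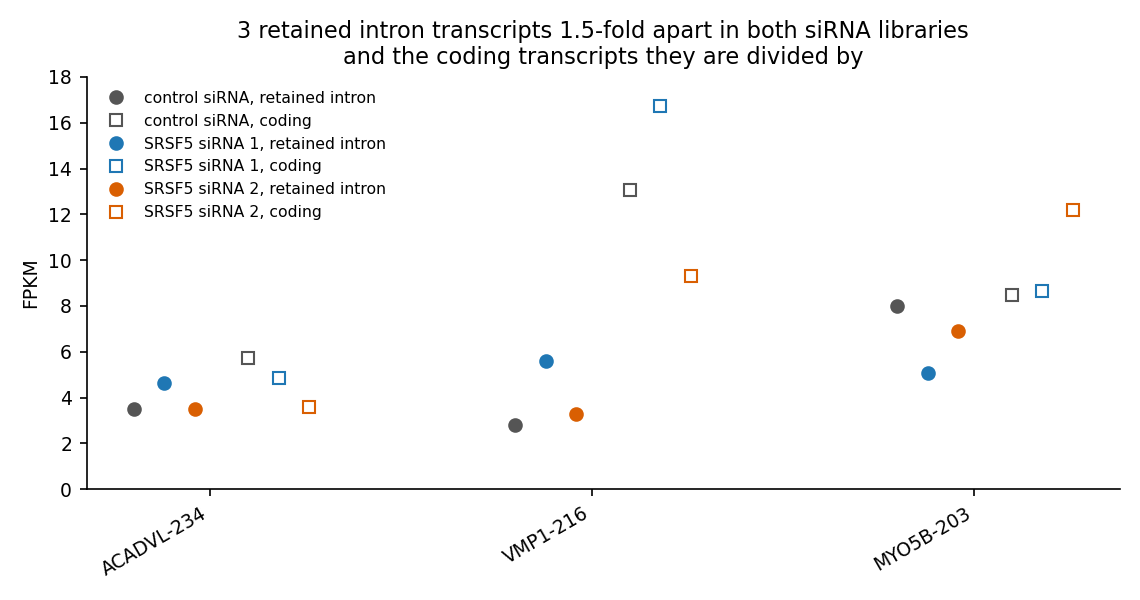
FPKM of ACADVL-234, VMP1-216 and MYO5B-203, each at least 1.5-fold apart in both siRNA libraries (filled circles), and of the coding transcript each is divided by (open squares) in the 3 libraries. VMP1-216 is highest with siRNA 1 (5.60), and the reference of MYO5B-203 is highest with siRNA 2 (12.2).

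Against the coding transcript that shares most exon bases, 4 of 7136 retained intron transcripts remained at least 1.5-fold apart in both, and ACADVL-234, VMP1-216 and MYO5B-203 were not among them. This comparison was added after the data were seen.

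Smaller changes of the same sign with both siRNAs were seen in genes of several functions. IGF1R-212, from the gene of the insulin-like growth factor 1 receptor, was at 2.39, 3.37 and 4.22 FPKM with a reference at 4.65, 4.61 and 5.76. The log2 change of its ratio was 0.51 with each siRNA, and those of IGF1R-208 and IGF1R-215 were at most 0.23. DLST-206, from an enzyme gene of the citric acid cycle, was at 3.04, 4.57 and 4.02 with a reference of 19.9, 20.1 and 19.7. In these genes the retained intron transcript itself was higher. In NUDT21, which encodes a subunit of cleavage factor I and helps to choose polyadenylation sites, the reference was at 22.3, 11.5 and 12.3. NUDT21-202 was at 4.57, 3.29 and 4.08, and all 3 members of the gene had a higher ratio in both. UBA6-205, THOC5-212, NASP-209, SLC25A28-203 and EIF2A-210 gave log2 changes between 0.35 and 0.55. Of these, all but SLC25A28-203 share no base with their reference. Against the coding transcript sharing most bases, THOC5-212 had a mean log2 change of only 0.08 (0.00 and 0.16) and NASP-209 of 0.13 (0.21 and 0.05). UBA6-205 kept 0.51 and EIF2A-210 0.37 in that comparison. Against the sum of coding transcripts the means of THOC5-212 and NASP-209 were 0.21 and 0.24, and that of NUDT21-202 was 0.38 in place of 0.59.

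Among lower ratios, KBTBD2-206 was at 3.55, 2.38 and 2.46 FPKM with a reference at 9.89, 8.43 and 9.15, giving a log2 change of the ratio of -0.35 and -0.41. RRP7A-203, from a gene of ribosomal RNA processing, was at 25.2, 19.9 and 16.5 with a reference at 8.60, 8.63 and 9.24, giving -0.35 and -0.72. COX19-204, from a gene needed for cytochrome oxidase assembly, had -0.36 and -0.66, and COX19-203 had -0.34 and -0.66. HOOK2 has 4 members, and HOOK2-214, with -0.45 and -0.86, shares no base with its reference. Against HOOK2-202, which shares most bases with it, the values were -0.05 and -0.28, and against the sum of coding transcripts -0.11 and -0.40. PLEKHJ1-202 overlaps MIR6789 and was at 4.15, 2.83 and 2.34 FPKM. Its mean log2 change was -0.49 (SD 0.11, n = 2), and -0.17 against the sum. MED25-208, GALNS-206, SLC25A36-209, MIDN-205 and SRRD-202 had values between -0.47 and -0.31, and the mean of MED25-208 went from -0.40 to -0.21 against the sum. ANKRD11-236 had -0.33 and -0.93 (mean -0.63), and -0.32 in mean against the sum. It shares 34 bases with its reference and 1844 with ANKRD11-222, against which the mean change was 0.05. None of these members passed limma's adjusted threshold, and each change rests on 1 control library. Of the 24 members with the largest changes in both, 12 each way, 9 share no base with the reference.

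Most members whose own level differed in both siRNA libraries had a reference that differed the same way. Since 78.4% of all members share exon bases, and so reads, with their reference, the levels of member and reference are not independent. How much of the likeness below comes from shared reads was not tested. In 137 members of 69 genes (1.86%) the FPKM was at least 1.5-fold higher in both siRNA libraries, against 2.11% of all secondary transcripts. In 127 of them the reference was also at least 1.5-fold higher in both. For 106 the ratio stayed within 1.1-fold in both, and for 0 was it 1.5-fold apart in both. In 71 members of 45 genes (0.962%) the FPKM was at least 1.5-fold lower in both, against 1.02%, and in 53 of these the reference was too. The ratio stayed within 1.1-fold in both for 46 of the 71, and for 0 was it 1.5-fold apart in both. KRT14-203, from a keratin gene of basal keratinocytes, went from 382 to 554 and 1670 FPKM while its ratio was 1.69, 1.66 and 1.64. Its level was under 1.5-fold from the control with siRNA 1, so it is not among the 137. TGFBI-210, from a matrix protein gene, went from 76.4 to 161 and 136 with ratios of 0.914, 0.883 and 0.885. HMGCS1-205, from an enzyme gene of cholesterol synthesis, went from 73.6 to 45.9 and 29.1 with ratios of 0.808, 0.755 and 0.721.

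Members were also counted in 16 gene lists for splicing, translation, metabolism and skin. In each list 0 members were 1.5-fold apart in both, beside 7 of all 7378 members, and the lists hold 8 to 217 members each. The list medians lay between -0.01 and 0.03 with siRNA 1 and between -0.02 and 0.01 with siRNA 2, beside 0.00 and 0.00 over all secondary transcripts. SR proteins and related factors had 74 members in 16 of 23 genes, with a median control ratio of 0.399. Their log2 changes ran from -0.16 to 0.23 with siRNA 1 and from -0.25 to 0.43 with siRNA 2. SRSF3-206 was at 1.02, 1.07 and 1.00 times its reference, SRRM1-210 at 1.52, 1.43 and 1.42, and SRSF2-210 at 1.02, 1.09 and 0.951. The hnRNP proteins and other RNA-binding regulators had 148 members in 33 of 56 genes, with changes from -0.21 to 0.41 and from -0.31 to 0.35. HNRNPA1-212 held 1.22, 1.25 and 1.25, and HNRNPK-209 held 1.01, 1.01 and 0.977.

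Among the 8 members in 4 splicing kinase genes, CLK1-211 was at 3.67, 4.34 and 5.39 FPKM with ratios of 1.57, 1.59 and 1.55. CLK1 phosphorylates SR proteins and is known to keep introns in its own RNA. The spliceosome list had 112 members in 30 genes, with BUD31-207 at 1.41, 1.44 and 1.43. In the list of RNA decay and quality control factors, 58 members in 20 genes had the widest changes with siRNA 1, from -0.22 to 0.44. EIF4A3-204, from a core gene of the exon junction complex, held 1.91, 1.90 and 1.85.

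The ribosomal protein list was the largest, with 217 members in 64 of 77 genes. Changes ran from -0.11 to 0.11 with siRNA 1 and from -0.27 to 0.15 with siRNA 2, and RPL5-210 held 1.37, 1.35 and 1.34. Translation factors had 152 members in 30 genes, with EEF2-203 at 2094, 1791 and 2504 FPKM and ratios of 3.15, 3.01 and 2.85. The snoRNA host list had 89 members in 13 genes, with NCL-210 at 0.897, 0.946 and 0.919. Members of oxidative phosphorylation genes (119), the proteasome (112), chaperones (81) and glycolysis (48) had medians between -0.01 and 0.01 with both siRNAs. In the sterol list, the median coding change was -0.20 with siRNA 1 and -0.97 with siRNA 2, and the median ratio change of its 62 members 0.00 and 0.00. Keratinocyte structure and adhesion (75 members), matrix and YAP target genes (33) and interferon-induced genes (26) had medians between -0.02 and 0.02. In the keratinocyte list the lowest change was -0.63 with siRNA 2.

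The ratio differed between the siRNAs in more members than between siRNA 1 and the control, and in fewer than between siRNA 2 and the control. The ratio was at least 1.5-fold apart between siRNA 1 and siRNA 2 in 38 members (0.515%), against 0.597% of all secondary transcripts. In 20 it was higher with siRNA 2 and in 18 lower, against 0.313% and 0.283%. TMEM167A-205, from a Golgi protein gene, was at 7.83, 6.60 and 6.41 FPKM while its reference was at 4.01, 7.91 and 2.35. The ratio was 1.95, 0.835 and 2.73, and the reference was the value that differed more. PAPOLA-206, from the gene of a poly(A) polymerase, was at 7.70, 8.11 and 3.05 FPKM, low with siRNA 2 only, while its reference held 12.7, 12.5 and 12.4. NUP98-210, from a nuclear pore gene, was likewise low with siRNA 2, at 5.87, 5.74 and 2.24. GAS6-204, from the gene of a receptor ligand, was at 4.18, 4.99 and 5.70 with a reference of 20.3, 24.8 and 14.7. POLR1D-205, ANTXR1-207, OSBPL3-213 and BAIAP2-230 completed the largest differences. From the control alone, 11 members (0.149%) were 1.5-fold away with siRNA 1 and 42 (0.569%) with siRNA 2, against 0.158% and 0.504% of the secondary transcripts.

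Reads that must lie outside coding exons are free of the coding reads that enter the ratio. The bases they cover need not belong to a complete intron of the reference. CIAO1-201 has 2313 bases outside coding exons, and the complete intron inside it has 609. Where another transcript contains every base that a member shares with coding exons, the member's surplus of weighted reads over that transcript can only come from reads outside coding exons. This surplus is a lower limit, so differences between libraries in it are not fold changes. A limit could be computed for 6901 members and was above 0 in every library for 252. It reached 20 reads in every library for 72 members of 64 genes and 50 reads for 41. A limit of 0 says nothing about the reads in an intron, since overlapping transcripts can hide them.

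OGT had the highest limit. It encodes the enzyme that attaches O-GlcNAc to proteins, and its intron 4 is known to be held back in the nucleus. OGT-210 keeps this intron of 3271 bases (chrX:71544636-71547906), and at least 730, 953 and 737 weighted reads lay in it. The ratio was 1.11, 1.12 and 1.08 while OGT-201 itself was at 5.13, 6.56 and 6.58 FPKM. ARGLU1, a gene of an SR-like splicing regulator with a well-known retained intron 2, had at least 595, 761 and 468 reads in that intron of 2300 bases. In both genes the limit, which is not scaled to library size, was highest with siRNA 1. ARGLU1-204 as a whole had 2022, 2356 and 2350 weighted reads, and the subtracted ARGLU1-203 had 1427, 1595 and 1882. The nuclear RNA MALAT1 was also highest with siRNA 1. It was at 1083, 1552 and 856 RPM when scaled to reads on chromosomes other than the mitochondrial one. The relation of MALAT1 to these limits was not tested. CIAO1-201, PML-212 and EIF4A2-219 had at least 714, 477 and 555, at least 527, 488 and 591, and at least 474, 554 and 512 reads. The limits of CIAO1-201 and PML-212 were thus lowest with siRNA 1, and that of EIF4A2-219 was highest there. EIF4A2-219 holds several small RNAs, SNORA4 and SNORD2 among them, whose reads cannot be told apart from its own.

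Splicing factor genes were also among these members. SRSF3-207 had at least 176, 210 and 166 such reads and SRSF3-201 at least 115, 146 and 123, with ratios of 0.231, 0.248 and 0.237, and 0.476, 0.522 and 0.467. SRSF10-213, SRRM2-228 and SRRM1-205 had at least 133, 178 and 138, 123, 148 and 148, and 95.02, 70.7 and 67.5 such reads. The member of the RNA helicase gene DDX5 that overlaps MIR3064 and MIR5047 had at least 259, 372 and 220. HNRNPU-231 had at least 164, 187 and 160. The limits of these genes were above 0 in every library, and none of their ratios was 1.5-fold from the control in both. The limit differed widely between libraries in some members, such as UFD1-205 with at least 268, 498 and 137 reads. KRT15-207, from a keratin gene of basal cells, had at least 162, 51.8 and 402. Its ratio was 0.427, 0.436 and 0.489, and the coding KRT15-204 was at 59.0, 20.4 and 49.9 FPKM. IL18-203, from a cytokine gene of keratinocytes, had at least 44.4, 145 and 154 reads and ratios of 0.544, 0.630 and 0.571.

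Of the 72 members, 30 keep a complete intron of the reference, 11 hold a small RNA and 19 share an exon with another gene on the strand, whose reads cannot be told apart. The 4 without any base in a coding exon are all from TAF1D, a snoRNA host gene. Divided by the bases outside coding exons, the median limit was 0.0751 times the reference in the control (range 0.00248 to 4.3). For SNX5-218, which contains the nested SNX5-212, the number of weighted reads outside SNX5-212 is exact. It was 256, 279 and 223, a log2 change against the reference of 0.00 and 0.04. SNX5-212 has 1321 bases and shares 894 with the coding SNX5-201. Reads in the other bases of SNX5-212 are not in this number. Counts of this kind reached at least 20 in any library for 3 members, and 0 of them were 1.5-fold apart in both. ACTB-206 was the member that differed most, with 12.3, 16 and 26 reads, and RPS12-202 had 34.5, 30.5 and 38.

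**Figure D4:**
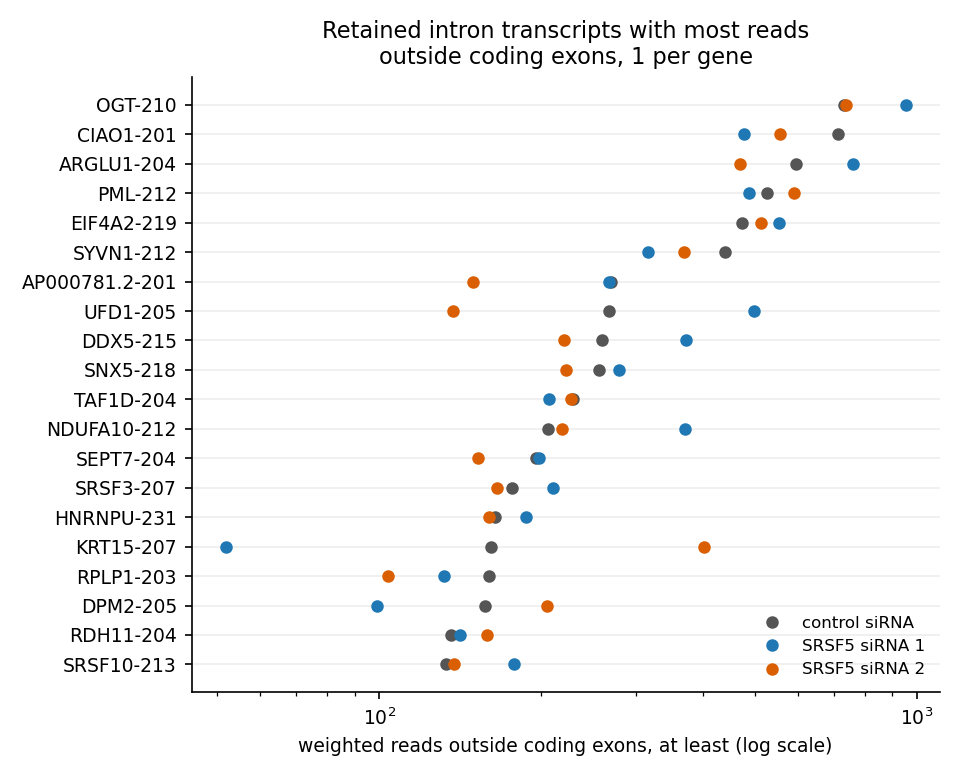
Lower limit of weighted reads outside coding exons (horizontal log axis) in the 3 libraries for 20 of the genes with the highest limits in the control, by their top member. Most genes have the 3 points close together, and KRT15-207 spreads from 51.8 to 402.

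SRSF5 has 8 retained intron transcripts and none was a member, since all were below 2 FPKM with siRNA 2. SRSF5-207, the longest, went from 2.67 to 1.51 and 0.671 FPKM, and the coding reference SRSF5-206 from 7.81 to 3.55 and 1.44. The ratio was 0.342, 0.426 and 0.465. SRSF5-212 had 0.423, 0.515 and 0.560, and SRSF5-208 had 0.338, 0.390 and 0.513. SRSF5-213 had 0.928, 1.13 and 1.27. By contrast, SRSF5-219 held 0.782, 0.790 and 0.786, and SRSF5-214 and SRSF5-218 had lower ratios with both siRNAs. All 8 were thus lower in level with knockdown, and 5 of them had a higher ratio in both siRNA libraries by over 0.05 on the log2 scale (SRSF5-207, SRSF5-208, SRSF5-210, SRSF5-212 and SRSF5-213).

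The level filter decided which genes could be seen. Just inside it were PTOV1-209 (2.00, 3.05 and 2.30 FPKM), YTHDC2-203, whose reference was at 2.00 with siRNA 2, and ATAD3B-203 (2.83, 2.28 and 2.00). Just outside were YDJC-207, EEF1A2-204 and PRR13-213, each at 2.00 after rounding in 1 library. Of the transcripts left out, 597 missed the filter with siRNA 2 only, 336 with siRNA 1 only and 224 in the control only. A gene held a median of 2 members, 1135 genes held 1 and DYNC1H1 held 25, so members of a gene share reads and are not separate observations.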

How the data were processed

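RNA of 3 HaCaT cultures was sequenced with a SMARTer mRNA kit, per the labels' protocols. Per the file headers, the deposited values are FPKM, given for each transcript with its exons, strand and length. The submitters' processing notes name GRCh38.p12 among other builds. Which aligner and counter were used is not given in the sources used here. Exons as deposited of 4796 of 4866 transcripts that hold a complete intron matched GENCODE 29 exactly, and sequences were read only from those.

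In each library 100% of the products of FPKM and length were multiples of a smallest step (tolerance 0.05 of it), and 100 steps make a read. In loci with 1 transcript 81.7% of low control values were whole reads. In loci with 2 transcripts 43.5% were multiples of 0.5 that were not whole, and in loci with 3 transcripts 38.8% ended in 33 or 67 hundredths. Reads therefore appear to be divided equally among the transcripts they touch. Values of lncRNA alone on their strand were whole in 88.2% with an exon on the opposite strand and 81.1% without, so strand was used. Reads of near-identical genes were divided too, so those genes are uncertain. A planned level from intron bases assumed base counts, and the lower limit of reads took its place.

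Ratios were taken without a pseudocount. The call rule was 1.5-fold from the control, the same way with both siRNAs. limma 3.58.1 in R 4.3.3 was fitted with a trend over 33515 transcripts. No count model was run, since a read is split over transcripts. Counting errors treat reads as separate molecules and are upper limits for shared reads. Nothing says that a transfection was repeated, so p-values measure only the spread between these samples.

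Named members were the 12 highest control ratios, the 12 largest changes each way in both, 1 per gene, the 4 largest differences each way between siRNAs, the 8 highest read limits, up to 4 per gene list by FPKM, and those next to the filter. Other genes were chosen after their values were seen. The members and lists were chosen with earlier results of these data known. Alternatives changed the reference, pseudocount, filter, fold, limma settings, transcripts per gene and libraries. Some named members, and the results that need them, are not reported here.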

Additional observations from a re-analysis of the deposited data

How the results depend on the processing

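The count of members 1.5-fold apart in both siRNA libraries was 7. It was 4 with the coding transcript highest in each library, 4 with the coding transcript sharing most exon bases (added after the data were seen), 1 with the sum of coding transcripts, 2 with a pseudocount of 1 FPKM, 1 at 5 FPKM or more, 1 with 1 transcript per gene and 0 at a fold of 2. Among 23567 transcripts with any value above 0 in all libraries it was 940. With a single siRNA library it ranged from 11 (siRNA 1 alone) to 42 (siRNA 2 alone). The count apart between siRNAs was 38. It was 25 with the sum, 20 with the pseudocount, 4 at 5 FPKM, 15 with 1 transcript per gene, 8 at a fold of 2, 21 with the most-sharing coding transcript and 2393 above 0. The median control ratio of 0.643 was 0.182 with the sum, 0.684 with the pseudocount, 0.683 at 5 FPKM, 0.534 above 0, 0.833 with 1 transcript per gene and 0.825 with the most-sharing transcript. limma called 0 members in every alternative, with smallest adjusted p from 0.864 to 1 and 177 to 1262 members at an unadjusted p under 0.05. Exact counts of reads outside a nested transcript gave 0 members apart, and 0 to 1 with a single siRNA library.

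Of the 24 members with the largest changes, only ANKRD11-236 changed sign, to a mean log2 change of 0.0517 with the most-sharing coding transcript, where PLEKHJ1-202 has no value. Of the others, 7 moved by more than the spread between siRNAs with that transcript, 14 with the pseudocount, 12 with the sum and 1 with the transcript highest in each library. The cause of these differences was not tested. The median log2 change stayed between -0.01 and 0.01 in all these alternatives. The counting error of a log2 change had a median of 0.18 and reached 0.63, which limits single members. The planned ratio from intron bases was not run, since the values are not base counts. No paired analysis was possible because the groups share only 1 replicate number, which comes from the siRNA number and pairs no cultures.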
